A study of Homo sapiens with 24 samples.

Results

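The way in which FZD8_CRD altered the response of HepaRG cells to Wnt3a was measured gene by gene as a difference of differences. The Wnt3a response in the presence of FZD8_CRD (FZ8CRD-AND-WNT3A minus FZ8CRD) was compared with the response in its absence (WNT3A minus untreated). The comparison used the 12 arrays of cells that received no siRNA, 3 for each of the 4 conditions, of 24 arrays in the series. HepaRG is an established human liver progenitor line derived from a hepatocellular carcinoma. The cells were left untreated, or received 200 ng/ml Wnt3a, 300 ng/ml FZD8_CRD or both for 72 h, both proteins being recombinant mouse products, in serum-free medium with albumin. The series describes 3 independent culture experiments, and each array held RNA of 1 culture. The study used FZD8_CRD to block Wnt3a outside the cell, and the comparison describes how the Wnt3a response differed when FZD8_CRD was present. The arrays do not measure how far the ligand was blocked, so dependence on free ligand was not tested.

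Wnt3a is a secreted, lipid-modified protein that binds Frizzled receptors through their cysteine-rich domain, together with the co-receptors LRP5 and LRP6. Binding inactivates the complex that degrades β-catenin, which then enters the nucleus and acts with TCF and LEF factors on target genes, among them the feedback inhibitors AXIN2, NKD1 and RNF43. FZD8_CRD is the soluble cysteine-rich domain of Frizzled-8, which binds Wnt ligands away from the cell as the secreted Frizzled-related proteins do. In the liver, this pathway is known for controlling progenitor growth, hepatocyte zonation and matrix production by fibrogenic cells.

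Levels are given as log2 of the background-corrected signal over the 75th percentile of the array, so that 0 is the level of a probe at that percentile and the lower limit was -6.08. A difference below 0 means that the Wnt3a response was smaller, or more negative, with FZD8_CRD than without it. A gene was called when the limma test of the difference gave an adjusted p under 0.05 over 24290 genes tested. A looser rule, from the thresholds that the study used, took an unadjusted p under 0.01 with a fold above 1.5 or below 0.7. Replicate 1, 2 or 3 of every condition lay on the same slide, so that a difference could also be read within each of 3 slides. Each condition kept its place on the slide, so that place and condition cannot be told apart.

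The array labelled FZ8CRD replicate 3 stood apart from the other FZ8CRD arrays. Over the genes tested, its root mean square difference from FZ8CRD replicates 1 and 2 was 0.55 and 0.53. Its difference from the 3 FZ8CRD-AND-WNT3A arrays was 0.41, 0.365 and 0.29, so that it lay closer to each of these than to its own condition. FZ8CRD replicates 1 and 2 differed from each other by 0.36, and from FZ8CRD-AND-WNT3A arrays by 0.51 or more. In all, 5 of the 12 arrays lay nearest to an array of another condition (FZ8CRD 3, FZ8CRD-AND-WNT3A 3, untreated 3, WNT3A 1 and WNT3A 3). The correlation between arrays of 1 condition ranged from 0.984 to 0.996. Because the FZ8CRD arrays form the baseline of the response with FZD8_CRD, results are given with the array labelled FZ8CRD replicate 3 and without it.

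Hepatic markers were detected in the cells, at levels that differed widely. ALB (albumin), APOA1, TTR and SERPINA1, all secreted by hepatocytes, and the biliary and progenitor keratins KRT19 and KRT7 were well above background on all 12 arrays. EPCAM was above background on 1 array. Among markers of other cells, the stellate cell gene RELN was above background on 0 arrays, PDGFRB on 2, LRAT on 9 and the T cell gene CD3E on 7. PTPRC, PECAM1, CDH5 and VWF had signal above background on all 12 arrays, as did CD14, CD68, KDR, DES and COL1A1, and no probe carried the symbol LYZ. HNF4A and SOX9, which act in hepatic cells, were above background on all 12 as well. Being above background thus did not separate hepatic from other markers. In untreated cells the mean level was 9.41 for ALB, 8.16 for SERPINA1, 7.93 for KRT19 and 3.10 for KRT7. It was 1.805 for KDR, 1.585 for CD68, 1.20 for CD14, -3.535 for PTPRC and -4.60 for VWF. HNF4A (-3.53) and SOX9 (-3.03) were also low. The part of other cell types in these signals was not tested.

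With all 12 arrays, no gene was called. The limma test gave 0 of 24290 genes (0%) at an adjusted p under 0.05, with 1775 at an unadjusted p under 0.05 and a smallest adjusted p of 0.358. Past the looser thresholds were 288 genes (1.19% of those tested), of which 145 (0.597%) had a difference below 0 and 143 (0.589%) above 0. The same fit called 41 genes (0.169%) for Wnt3a without FZD8_CRD and 67 (0.276%) for Wnt3a with it. FZD8_CRD against none was called for 8292 genes (34.1%) in the absence of Wnt3a and for 6818 (28.1%) in its presence. Other fits called 0 to 3420 genes: 0 with quantile normalization and 0 with the replicate block, 4 by ordinary least squares, 18 with all 24 arrays in the model, and 1510 with array weights, which gave FZ8CRD replicate 3 a weight of 0.257. Scaling to the 7 spike-in probes moved the median difference of all genes from 0.01 to 0.31. With it 63 genes were called, and 326 of 343 genes past the looser thresholds were above 0 (95%, against 49.7% without it), so directions are given relative to the median of all genes. Thus the cells exposed to FZD8_CRD differed from the others in many genes with and without Wnt3a, and the difference of differences was sought on top of that shift.

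Without the array labelled FZ8CRD replicate 3, 518 genes were called (2.13%), 271 with a difference below 0 and 247 above 0. Of these, 252 and 242 were also called for Wnt3a in the presence of FZD8_CRD, against 21 and 14 for Wnt3a in its absence. Over all genes this fit called 3060 (12.6%) for Wnt3a with FZD8_CRD and 217 (0.893%) without it. Among the 271, the mean responses without and with FZD8_CRD had opposite signs for 178, the response with FZD8_CRD was larger in the same direction for 91, and it was smaller in the same direction for 2. Among the 247, these counts were 133, 114 and 0. Each array was left out in turn, and this one was taken up after its values were seen, because it lay near the arrays from which it is subtracted. Leaving it out for that reason by itself widens the response with FZD8_CRD, so the calls and adjusted p values without it, here and below, are a description and no independent test. The response with FZD8_CRD then rested on 2 baseline arrays. Past the looser thresholds were 1284 genes without that array. Leaving out untreated replicate 3 gave 593 past them and 0 called, and leaving out WNT3A replicate 3 gave 486 and 0.

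**Figure D1:**
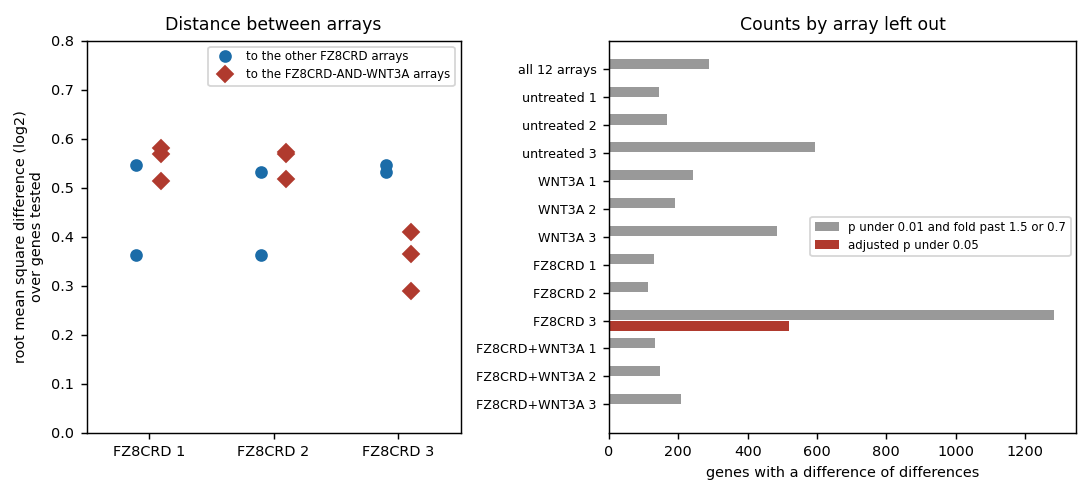
Left, root mean square difference in log2 level between each FZ8CRD array and the other FZ8CRD arrays (circles) or the FZ8CRD-AND-WNT3A arrays (diamonds). Right, genes with a difference of differences on all 12 arrays and after leaving out each array, at both thresholds; 518 genes were called without FZ8CRD 3 and 0 without any other single array.

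The extracellular matrix gene HAPLN1 had the largest difference among the named genes. HAPLN1 encodes the link protein that anchors proteoglycans to hyaluronan. Its level was -5.07, -4.41 and -4.09 in untreated cells and -2.59, -1.65 and -2.15 with Wnt3a. With FZD8_CRD it was -2.54, -2.33 and -5.47, and with FZD8_CRD and Wnt3a -5.03, -5.72 and -5.86. Every WNT3A array was thus above every untreated array, whereas the 3 arrays with both proteins lay below FZ8CRD replicates 1 and 2, with FZ8CRD replicate 3 among them. The response was 2.39 without FZD8_CRD and -2.09 with it, a difference of -4.48 (standard error 0.94, 95% interval -6.54 to -2.43, adjusted p = 0.668), with slide values of -4.97, -6.15 and -2.33. Without the array labelled FZ8CRD replicate 3 the difference was -5.49 (adjusted p = 0.000509). Several of these levels were near the lower limit, and the size of the difference depended on the processing. Over the other settings that left no array out, it ranged from -5.164 to -2.411.

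HAPLN1 belongs to a list of small leucine-rich proteoglycans, which bind collagen fibrils, and of hyaluronan matrix genes. LUM (lumican) measured 2.24, 2.77 and 2.74 in untreated cells, 3.48, 3.55 and 3.83 with Wnt3a, 2.98, 2.84 and 1.90 with FZD8_CRD, and 2.18, 2.16 and 2.22 with both. The WNT3A arrays were above all others, and FZ8CRD replicate 3 was the lowest array. The LUM difference was -1.42 (standard error 0.34, adjusted p = 0.668), and -1.76 without the array labelled FZ8CRD replicate 3 (adjusted p = 0.00227). EPYC (epiphycan) had responses of 2.02 without and -1.63 with FZD8_CRD, a difference of -3.65, with 1 FZ8CRD and 1 FZ8CRD-AND-WNT3A array at the lower limit. DCN (decorin) had a difference of -0.86, and FZD8_CRD alone changed its level by -1.49 (adjusted p = 0.000264). Of the 14 tested members of this list of 20, 10 had a difference below 0 and 4 above 0, with a median of -0.58 against 0.01 over all genes tested. Past the looser thresholds were 4 of the 14, against 1.19% over all genes, namely HAPLN1, LUM, EPYC and DCN, all below 0. Without FZ8CRD replicate 3, 6 of the 14 were called below 0 (these 4, FMOD and OMD) and none above, with 2.13% called over all genes. HAPLN1, LUM, EPYC and DCN are also on the study's list of FZD8_CRD-sensitive genes, which was sorted on these arrays. The proteoglycan and hyaluronan list was chosen with earlier results of these data known, so its counts are a description and no independent support. The list median was -0.44, -0.41 and -0.38 within the slides, and it depended on the processing, with a range of -0.859 to -0.084 and the value nearest 0 where no filter on low signals was used.

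The promoter of HAPLN1 is shown because the gene carried the largest difference among the named genes, and those of IGFL1 and IGFL2 because these neighbouring genes had the highest Wnt3a responses in the presence of FZD8_CRD among the named genes. They are the RefSeq windows of 300 bases around each gene's start (GRCh38.p14), at chr5:83720806-83721105 on the minus strand, chr19:46229492-46229791 on the plus strand and chr19:46147988-46148287 on the plus strand. Capitals mark the TCF and LEF letters CTTTGAA or CTTTGAT on either strand.
HAPLN1: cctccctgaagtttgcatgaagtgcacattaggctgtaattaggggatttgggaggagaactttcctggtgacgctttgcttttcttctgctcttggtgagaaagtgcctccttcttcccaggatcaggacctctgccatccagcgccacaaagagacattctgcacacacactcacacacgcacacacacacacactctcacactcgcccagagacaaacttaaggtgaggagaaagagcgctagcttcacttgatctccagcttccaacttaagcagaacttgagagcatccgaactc
IGFL1: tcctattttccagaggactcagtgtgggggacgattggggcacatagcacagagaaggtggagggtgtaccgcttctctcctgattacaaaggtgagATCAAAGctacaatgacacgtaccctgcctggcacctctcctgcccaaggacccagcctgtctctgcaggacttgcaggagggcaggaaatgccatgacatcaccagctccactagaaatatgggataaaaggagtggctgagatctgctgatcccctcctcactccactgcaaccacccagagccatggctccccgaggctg
IGFL2: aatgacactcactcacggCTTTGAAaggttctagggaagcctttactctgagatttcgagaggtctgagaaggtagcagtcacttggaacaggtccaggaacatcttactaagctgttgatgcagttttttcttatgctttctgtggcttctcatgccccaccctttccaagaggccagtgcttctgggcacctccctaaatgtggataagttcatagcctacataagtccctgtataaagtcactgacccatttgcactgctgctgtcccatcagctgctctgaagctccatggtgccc
The HAPLN1 window held none of these letters, nor did that of IGFL3, and the windows of IGFL1 and IGFL2 held 1 match each. Either motif was found in 6.86% of the 35116 promoters in the RefSeq table, and in 5 of the 125 named genes that matched it (4%), namely DKK1, IGFL1, IGFL2, MMP7 and RPS23.

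Several of the other genes with a difference below 0 can be described by 2 patterns, and not all of them were like either. In the first, FZD8_CRD alone gave a level above that of untreated cells, and the response to Wnt3a on top of it was near 0 and not called. NXN, which encodes a redox protein that binds Dishevelled, measured -0.14, -0.18 and 0.05 in untreated cells, 0.65, 0.99 and 0.57 with Wnt3a, 0.66, 0.84 and 0.64 with FZD8_CRD and 0.64, 0.60 and 0.65 with both. Its untreated arrays were below the 9 others, which overlapped. The difference was -0.91 (standard error 0.17, adjusted p = 0.668), from a called response of 0.83 (adjusted p = 0.020) to -0.08. SLC26A2, a sulfate transporter used in proteoglycan synthesis, had responses of 1.45 (adjusted p = 0.013) and 0.23, and with FZD8_CRD alone it was higher than in untreated cells by 0.94 (adjusted p = 0.00226).

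In the second pattern, FZD8_CRD alone left a level that did not pass the test against untreated cells, and cells given both proteins were below those given Wnt3a. NOG, which encodes the BMP antagonist noggin, measured -2.95, -2.78 and -2.90 in untreated cells, -1.98, -1.53 and -2.10 with Wnt3a, -2.56, -2.44 and -3.29 with FZD8_CRD, and -3.25, -3.24 and -3.14 with both. Each WNT3A array was above each array of the other conditions. The difference was -1.45 (standard error 0.31, adjusted p = 0.668). FST, encoding follistatin, which binds activin, had responses of 0.53 and -0.48. The glutamate transporter SLC1A3 had a called response of 0.91 without FZD8_CRD (adjusted p = 0.0365) and a value of 0.01 with it. The potassium channel gene KCNJ2 had responses of 0.56 and -0.77, and the chemokine gene CXCL14 had 0.27 and -1.14. For NOG, SLC1A3, KCNJ2 and CXCL14 the level with both proteins was lower than with Wnt3a alone at adjusted p values from 0.00101 to 0.0045. CTNNAL1, a catenin-like gene, belonged to neither pattern, with responses of 0.16 and -0.41. Nor did STK32B, a serine-threonine kinase, which FZD8_CRD alone raised by 1.51 (adjusted p = 0.000314) and whose responses to Wnt3a were 0.95 and -0.31. LY6K, which encodes a membrane-anchored protein, was like neither pattern as well. Its responses were 0.03 and -1.34 (adjusted p = 0.034), a difference of -1.36, and FZD8_CRD alone raised it by 1.66 (adjusted p = 0.000319). Without FZ8CRD replicate 3, NXN, SLC26A2, STK32B, NOG, FST, SLC1A3, KCNJ2, CXCL14, CTNNAL1 and LY6K were all called for the difference, the largest adjusted p being 0.0488 (SLC26A2).

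**Figure D2:**
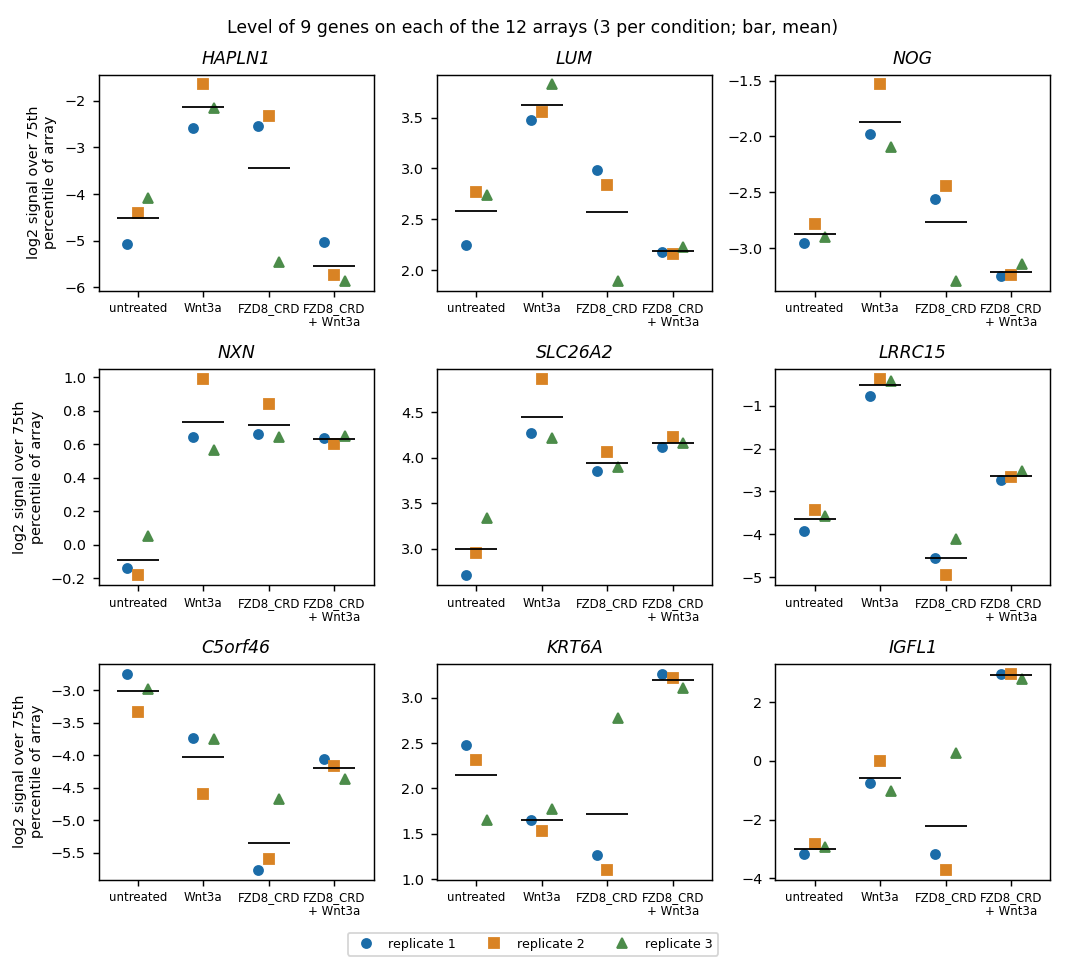
Levels of 9 genes (log2 signal over the 75th percentile of the array) on the 12 arrays, with a point per array, a symbol per replicate number and a bar at the mean of each condition. FZ8CRD replicate 3 (triangle) is far from replicates 1 and 2 for HAPLN1, KRT6A and IGFL1, and within 0.3 of them for NXN and SLC26A2.

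Differences above 0 were found for genes whose Wnt3a response was higher with FZD8_CRD. C5orf46, which encodes a small secreted protein, measured -2.74, -3.34 and -2.97 in untreated cells, -3.74, -4.60 and -3.75 with Wnt3a, -5.76, -5.60 and -4.67 with FZD8_CRD, and -4.05, -4.17 and -4.36 with both. It was highest in untreated cells, and the arrays with FZD8_CRD alone were below the rest. The difference was 2.16 (standard error 0.44, adjusted p = 0.668), with slide values of 2.71, 2.69 and 1.09. As C5orf46 was named by a rule that required 1 sign on the 3 slides, that sign adds no support. KRT6A, an epithelial keratin of wound repair, measured 3.27, 3.22 and 3.11 with both proteins, above the 9 other arrays, and 1.26, 1.10 and 2.78 with FZD8_CRD alone. Its difference was 1.99 (adjusted p = 0.668), with slide values of 2.84, 2.91 and 0.20, and 2.52 without FZ8CRD replicate 3 (adjusted p = 0.00118).

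Smaller differences above 0 were found in genes of varied function. ADAMTS9, a secreted metalloproteinase that cleaves proteoglycans, had responses of -0.08 and 0.45 (adjusted p = 0.045), a difference of 0.53. S100A10, the annexin A2 partner, had -0.15 and 0.42, the sialyltransferase gene ST3GAL4 -0.31 and 0.31, and the membrane protein gene TMEM14A -0.20 and 0.31. The differences of VCX2, TMEM89 and BBOF1 were 0.77, 0.95 and 0.78, and for VCX2 and TMEM89 FZD8_CRD alone changed the level by -0.86 and -1.13. For all 9 genes of these sentences and the preceding ones on C5orf46 and KRT6A the adjusted p was 0.668. Without FZ8CRD replicate 3, BBOF1 missed the threshold (adjusted p = 0.0545) and the other 8 passed it.

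**Figure D3:**
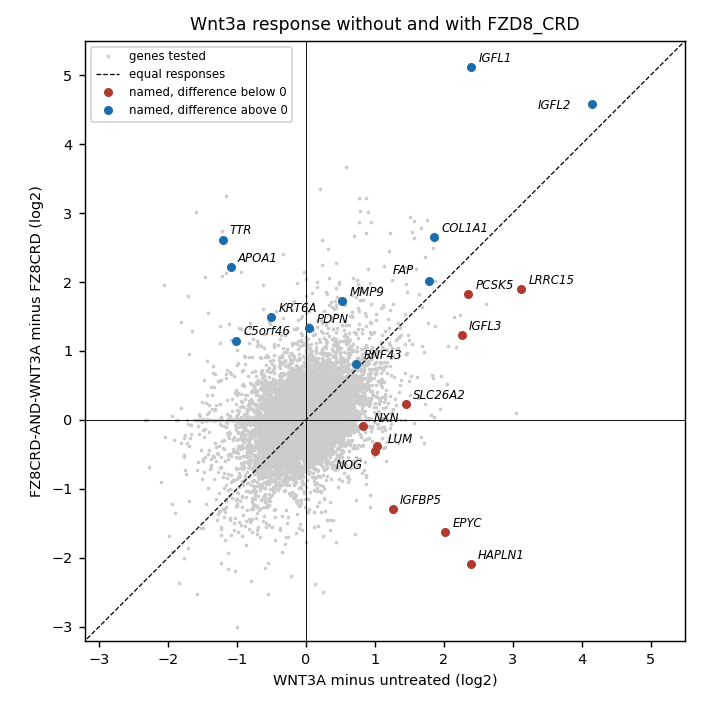
Wnt3a response (log2) without FZD8_CRD on the horizontal axis and with FZD8_CRD on the vertical axis, for 24290 genes tested (grey) and 21 named genes, with a dashed line of equal responses. HAPLN1, EPYC, IGFBP5, LUM and NOG lie right of 0 on the horizontal axis and below 0 on the vertical one, and IGFL1 and IGFL2 lie highest.

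Genes of the Wnt pathway are described by counts and medians, since on the 12 arrays no gene of any kind was called. Of 10 tested genes of Wnt ligands and their secretion, 8 had a difference below 0 (median -0.15), with WNT5A, a non-canonical ligand, at -0.78 and WNT3A, whose transcript is not that of the added mouse protein, at -0.05. Of 19 genes of Frizzled receptors, co-receptors and their enhancers, 13 were below 0 (median -0.22), with LRP5 at -0.45, ROR2 at -0.44, RSPO3, a secreted enhancer of Wnt signaling, at -0.74, and LRP6 at 0.12. FZD8 itself measured -1.05 in untreated cells, -2.22 with Wnt3a, -2.58 with FZD8_CRD and -3.52 with both, a difference of 0.23. Of 7 secreted inhibitor genes, 5 were below 0 (median -0.20). Of 25 genes of the destruction complex and intracellular relay, 16 were below 0 (median -0.10), CTNNB1 being at 0.21. Several of these values depended on FZ8CRD replicate 3, without which LRP6 was at -0.028, FZD8 at -0.003, WNT3A at 0.029 and CTNNB1 at 0.479. The median of the secreted inhibitor genes was then -0.097, and that of the destruction complex and intracellular relay genes -0.066. In these 4 lists, 0 genes were past the looser thresholds (1.19% over all genes) and 0 were called without FZ8CRD replicate 3 (2.13% over all genes). Over all genes tested, 48.9% were below 0.

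Of 13 tested feedback targets, 10 had a difference below 0 (median -0.19), and LEF1 and NKD2 were past the looser thresholds (15.4%, against 1.19% over all genes). LEF1, a nuclear partner of β-catenin, measured -0.28, -0.07 and 0.41 in untreated cells, 0.95, 1.56 and 0.91 with Wnt3a, 0.93, 0.93 and 1.19 with FZD8_CRD and 1.19, 1.21 and 1.16 with both. Its untreated arrays were below the 9 others, so LEF1 had the first of the patterns described, with FZD8_CRD alone higher than untreated by 1.00 (adjusted p = 0.00247). NKD2, a Dishevelled-binding inhibitor, had responses of 0.61 and -0.12. AXIN2, a scaffold of the destruction complex, had 0.37 and 0.13, a difference of -0.24 (95% interval -0.61 to 0.14). FZD8_CRD itself changed the AXIN2 level by -0.60 without Wnt3a (adjusted p = 0.0033) and by -0.84 with it (adjusted p = 0.000858). Leaving out FZ8CRD replicate 3 gave AXIN2 a response of 0.002 with FZD8_CRD and a difference of -0.364 (adjusted p = 0.25). RNF43, a ligase that removes Frizzled receptors, measured 1.09, 0.93 and 0.84 in untreated cells, 1.61, 1.71 and 1.74 with Wnt3a, -0.36, -0.44 and -0.24 with FZD8_CRD, and 0.50, 0.38 and 0.50 with both. The 4 conditions did not overlap. RNF43 thus rose with Wnt3a by 0.73 (adjusted p = 0.0156) without FZD8_CRD and by 0.81 (adjusted p = 0.00848) with it, a difference of 0.07 (95% interval -0.22 to 0.37). NKD1 did not pass the filter, and LGR5 was above background on 0 arrays, so neither was tested. Without FZ8CRD replicate 3, APCDD1 and DKK1, both inhibitors of the pathway, were called below 0 (15.4%, against 2.13% over all genes), and LEF1 (adjusted p = 0.17) and NKD2 (adjusted p = 0.0515) were not. On the 12 arrays DKK1 showed no rise with Wnt3a alone, its responses being -0.06 without FZD8_CRD and -0.88 with it.

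Genes that responded to Wnt3a alone were followed next. Among the 37 genes called higher with Wnt3a in the absence of FZD8_CRD, the median response was 1.15, and on the separate arrays with FZD8_CRD it was 0.59, with 36 above 0 and 9 called. Over all genes, 0.276% were called for the response with FZD8_CRD. The count called depended on FZ8CRD replicate 3, without which it was 23, with a median of 0.526 and 34 above 0. The share called over all genes also rose without that array, to 12.6%. Among the 52 called higher with Wnt3a in the presence of FZD8_CRD, the median was 1.36 there and 0.60 without it, with 49 above 0. Each set was chosen on 1 of the 2 responses, which by itself makes the chosen response the larger, so these medians show no direction of the difference.

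IGFL2 and LRRC15 had the largest called rises with Wnt3a alone among the named genes. LRRC15, a membrane protein of activated fibroblasts, measured -3.93, -3.42 and -3.58 in untreated cells, -0.76, -0.37 and -0.42 with Wnt3a, -4.56, -4.96 and -4.11 with FZD8_CRD and -2.74, -2.65 and -2.53 with both. The 4 conditions did not overlap. LRRC15 rose by 3.12 (adjusted p = 0.000206) without FZD8_CRD and by 1.90 (adjusted p = 0.00717) with it, a difference of -1.22 (standard error 0.31, adjusted p = 0.668; slides -1.35, -0.75 and -1.57). It was -1.008 and not called without FZ8CRD replicate 3 (adjusted p = 0.0884). IGFL2, an insulin growth factor-like secreted protein, rose by 4.14 (adjusted p = 0.016) and by 4.58 (adjusted p = 0.0088), a difference of 0.44 (95% interval -1.26 to 2.13), and of 1.295 without FZ8CRD replicate 3 (adjusted p = 0.0935). PCSK5, a proprotein convertase, rose by 2.36 (adjusted p = 0.00769) and by 1.82 (adjusted p = 0.0246). IGFL3 had responses of 2.26 and 1.23, the collagen receptor MRC2 1.77 and 1.40, and the basement membrane gene HMCN1 1.52 and 0.63.

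IGFL1 gave the highest response with FZD8_CRD of the named genes. It measured -3.18, -2.85 and -2.95 in untreated cells, -0.74, 0.00 and -1.03 with Wnt3a, -3.17, -3.71 and 0.27 with FZD8_CRD and 2.98, 2.96 and 2.80 with both. The arrays with both proteins were above the 9 others, and FZ8CRD replicate 3 was above every array without Wnt3a. The difference was 2.71 (adjusted p = 0.668), and 3.95 without FZ8CRD replicate 3 (adjusted p = 0.000599). IGFBP5, which binds insulin-like growth factors, went the other way, with responses of 1.26 and -1.30 and a difference of -2.56, and 1 FZ8CRD and 1 FZ8CRD-AND-WNT3A array at the lower limit. Without FZ8CRD replicate 3, the IGFBP5 response with FZD8_CRD was -2.08 and the difference -3.342 (adjusted p = 0.000452). Of the 13 tested members of the IGF and IGFL list, 6 were below 0 and 7 above 0 (median 0.08), and without FZ8CRD replicate 3 this turned to 7 below 0 and 6 above 0 (median -0.042).

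To choose Wnt3a-responsive genes on arrays that enter neither response, the 6 arrays of cells with control siRNA were used, a choice made after seeing the data. Wnt3a passed the looser thresholds there for 840 genes (3.46%), 368 higher and 472 lower. Of the 368, 356 were also above 0 with Wnt3a in cells without siRNA, and 351 in cells with FZD8_CRD. Their median response was 0.79 without FZD8_CRD and 0.84 with it, and the median difference was 0.06 against 0.01 over all genes tested. Below 0 were 172 and above 0 were 196, and 22 and 7 were past the looser thresholds in these directions (7.88% together, against 1.19% over all genes). The 472 lower genes had medians of -0.66 and -0.63, and a median difference of -0.03. Without FZ8CRD replicate 3, the median difference was 0.21 for the 368 genes and -0.21 for the 472, the response with FZD8_CRD then being the larger in both. The balance of the 368 then turned, with 147 below 0 and 221 above 0, and 13 and 37 called in these directions, with 2.13% called over all genes. Of the 472, 25 were called below 0 and 2 above 0 in that fit. Over slides 1, 2 and 3 the median difference of the 368 was 0.43, -0.10 and -0.17, and that of the 472 was -0.34, 0.46 and -0.13.

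Collagens and fibroblast genes showed members on both sides. Of 9 tested fibrillar collagens, 4 were below 0 and 5 above 0 (median 0.14), and 3 and 6 without FZ8CRD replicate 3 (median 0.328). COL1A1, the type I collagen chain, measured 0.47, 0.12 and -0.03 in untreated cells, 1.73, 2.74 and 1.66 with Wnt3a, -0.40, -0.26 and 1.37 with FZD8_CRD, and 2.95, 2.99 and 2.71 with both. Its response was 1.86 without FZD8_CRD and 2.65 (adjusted p = 0.0326) with it, a difference of 0.79 (95% interval -0.47 to 2.05), and of 1.357 without FZ8CRD replicate 3 (adjusted p = 0.0996). COL1A2, the partner chain, rose by 2.23 (adjusted p = 0.00581) with FZD8_CRD and had a response of 1.13 without it, with 1 of 3 FZ8CRD arrays above background. Of 25 other collagens, 14 were below 0 (median -0.11), and without FZ8CRD replicate 3 COL12A1, COL4A5, COL4A6 and COL8A1 were called, all below 0 (16%, against 2.13% over all genes). PCOLCE, which enhances collagen processing, had responses of 0.53 and -0.88, a difference of -1.41, whereas 15 genes of that list had a median of -0.10. Without FZ8CRD replicate 3, the PCOLCE response with FZD8_CRD was -1.34 and the difference -1.871 (adjusted p = 0.000368). PCOLCE was the 1 gene of the 15 then called (6.67%, against 2.13% over all genes).

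Among 10 fibroblast genes, 4 were below 0 and 6 above 0 (median 0.22). PDPN (podoplanin) had responses of 0.05 and 1.33, a difference of 1.28, and -1.22 was that of LRRC15. FAP, a fibroblast protease, measured -2.34 in untreated cells, -0.56 with Wnt3a, -3.60, -3.55 and -1.75 on the arrays with FZD8_CRD and -0.95 with both. Its difference was 0.23, and 0.844 without FZ8CRD replicate 3 (adjusted p = 0.075). MMP9, a gelatinase, rose by 1.73 (adjusted p = 0.0246) with FZD8_CRD and had a response of 0.53 without it, and 10 of 13 metalloproteinase and inhibitor genes were above 0 (median 0.14). The medians were 0.15 for 21 matricellular genes, 0.20 for 9 smooth muscle genes, -0.11 for 9 mesenchymal transition genes, and 0.01 for 18 TGF-beta and BMP genes. They moved to 0.315, 0.283, -0.068 and -0.057 without FZ8CRD replicate 3, and that of the fibroblast genes to 0.359. Called above 0 without FZ8CRD replicate 3 were 2 fibroblast genes (PDPN among them), 1 metalloproteinase gene (MMP9), 2 matricellular genes, 2 smooth muscle genes (ACTG2 among them) and 1 mesenchymal transition gene, with 2.13% called over all genes. In these lists 0 were called below 0, whereas the TGF-beta and BMP list had 3 below 0 and 0 above 0. ACTG2, a smooth muscle actin, rose by 1.78 (adjusted p = 0.034) with FZD8_CRD and had 0.45 without it.

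Hepatocyte, mitosis and acute-phase genes had the list medians farthest from 0, and these differed between slides. The median over 30 tested hepatocyte genes had a difference of 0.75, with 23 above 0 and 7 below 0, but the slide values were 1.04, 1.73 and -0.46. The median level of the list was 3.89, 2.81 and 1.73 in untreated cells, 2.35, 1.44 and 2.41 with Wnt3a, 0.34, -0.35 and 0.94 with FZD8_CRD and 0.42, 0.39 and 0.74 with both. The untreated replicates were thus not alike in hepatocyte gene level, ALB being the most abundant member, and 0 of 30 were past the looser thresholds (1.19% over all genes). TTR, which encodes transthyretin, measured 6.56, 4.91 and 3.65 in untreated cells, 4.11, 3.12 and 4.25 with Wnt3a, 1.55, 1.21 and 5.11 with FZD8_CRD and 5.19, 5.30 and 5.23 with both. FZ8CRD replicate 3 was here at the level of the arrays with both proteins. The TTR difference was 3.83 (standard error 1.28, adjusted p = 0.668; slides 6.09, 5.88 and -0.49), and that of APOA1, the apolipoprotein of high-density lipoprotein, was 3.31. Of the 30 hepatocyte genes, 4 were called without FZ8CRD replicate 3 (13.3%, against 2.13% over all genes). The 2 above 0 were TTR (5.07, adjusted p = 0.0137) and APOA1 (4.32, adjusted p = 0.0367). The 2 below 0 were APOB and GLUL, with GLUL at -0.72 (adjusted p = 0.021). Without that array 0 of the acute-phase genes were called. The 13 acute-phase genes had a median of 0.68, with 0.62, 1.85 and -0.45 on the slides.

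Of 31 mitosis genes, 30 had a difference below 0, with a median of -0.68 and slide values of -0.76, -1.36 and 0.07. The list level was 1.10, 1.36 and 1.56 in untreated cells, 1.499, 2.24 and 1.40 with Wnt3a, 3.22, 3.26 and 2.73 with FZD8_CRD and 2.82, 2.83 and 2.60 with both. All arrays with FZD8_CRD were above all arrays without it. All 32 DNA replication genes were below 0 (median -0.30; slides -0.34, -0.65 and 0.14). In both lists 0 genes were past the looser thresholds (1.19% over all genes), and 0 were called without FZ8CRD replicate 3 (2.13% over all genes). In bulk RNA, fewer cells of a kind and less RNA per cell cannot be told apart. The part of hepatocyte and cell division gene levels in the other differences was not tested.

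The remaining lists are given by counts and medians. Cholesterol and fatty acid synthesis genes had 24 of 26 members below 0 (median -0.23; slides -0.52, 0.04 and -0.03), and without FZ8CRD replicate 3, 5 were called, all below 0 (19.2%, against 2.13% over all genes). With the spike-in scaling this list's median was 0.072, below the 0.308 of all genes. Heat shock genes had 10 of 12 below 0 (median -0.18), metallothioneins 8 of 9 (median -0.20), and YAP and TAZ targets 8 of 12 (median -0.31). The medians were 0.09 for 33 interferon-stimulated genes, -0.02 for 16 MHC class I genes, 0.04 for 19 inflammatory chemokine and cytokine genes, and 0.11 for 20 endoplasmic reticulum stress genes. They were 0.09 for 18 hypoxia and glycolysis genes, 0.04 for 17 immediate early genes, 0.06 for 15 biliary and progenitor genes and -0.04 for 46 ribosomal protein genes. Called without FZ8CRD replicate 3 was 1 gene each above 0 in the endoplasmic reticulum stress, hypoxia, immediate early, inflammatory and biliary lists, and 1 each below 0 in the interferon, heat shock and YAP and TAZ lists. Over all genes, 2.13% were called in that fit. For markers of leukocytes, endothelium and stellate cells, 6 members each were tested, with medians of 0.20, -0.04 and -0.18, and of 0.111, 0.152 and -0.159 without FZ8CRD replicate 3. Among other lists, the inflammatory median was 0.114 and the cholesterol and fatty acid median -0.374 without that array. The MHC class I median was then -0.097, the immediate early median 0.016 and the ribosomal protein median -0.067.

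**Figure D4:**
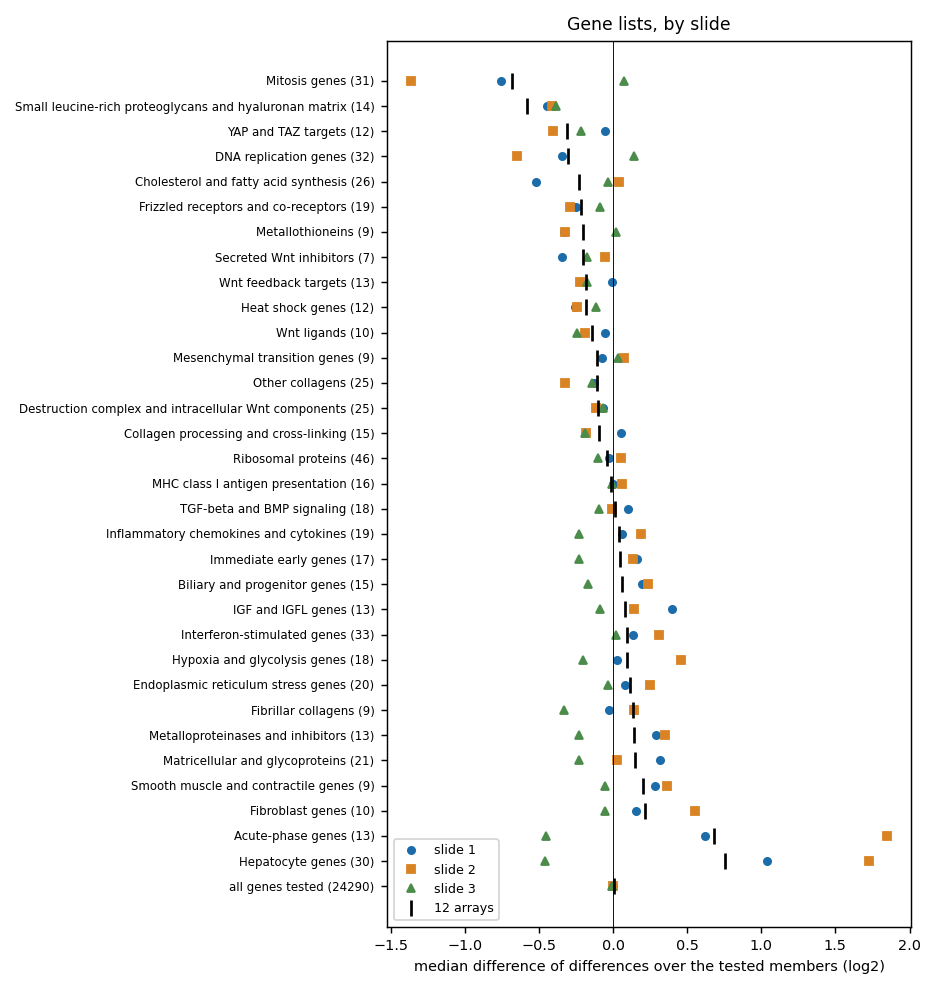
Median difference of differences (log2) over the tested members of 32 gene lists and over all genes tested, on the 12 arrays (bar) and within each of 3 slides (points), with the number of genes tested in brackets. Hepatocyte and acute-phase genes lie above 0 on slides 1 and 2 and below 0 on slide 3, and the list of small leucine-rich proteoglycans and hyaluronan matrix genes lies below 0 on each slide.

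The study sorted its Wnt3a targets on these arrays into genes sensitive and refractory to FZD8_CRD, so these 2 lists are not independent evidence of direction. Of the sensitive genes 217 were tested, with median responses of 0.62 without and 0.13 with FZD8_CRD, and a median difference of -0.15. The list also holds genes with a response below 0, such as C5orf46, so its medians and counts pool genes for which a block would act in opposite directions. Past the looser thresholds were 46 (32 below 0 and 14 above 0), with 1.19% past them over all genes. Of the refractory genes 117 were tested, with medians of 0.94 and 0.85, a median difference of -0.04 (0.025 without FZ8CRD replicate 3), and 5 past the thresholds (3 below 0 and 2 above 0). The called share without FZ8CRD replicate 3 was 13.4% of the sensitive genes (20 below 0 and 9 above 0) and 12.8% of the refractory genes (7 below 0 and 8 above 0), against 2.13% over all genes.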

How the data were processed

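As deposited, the intensity of each spot is linear, with background and spatial trend removed by Feature Extraction 10.7.3.1 per the submitters' notes. The deposited series-matrix values are log2 signals centred by the authors on the median of each probe, for 25443 probes; 20049 tested genes were found there, and they served as an alternative. Spots marked as outliers were left out, probes had to be above background on all 3 arrays of some condition, and each gene was read from its brightest probe. limma 3.58.1 (R 4.3.3) estimated a mean per condition, with Benjamini-Hochberg adjustment over 24290 genes; tests are two-sided. The fit was tested on simulated data. Named genes were the 10 with the smallest p in each direction (above background on all 12 arrays, 1 sign on 3 slides), up to 4 per list by p with any called, 16 listed by symbol, and the 10 largest called rises and falls with Wnt3a alone. Those printed were picked from these with their values known. Members and lists were chosen with earlier results of these data known. The gene set from control siRNA arrays was added after the data were seen. Genes on the study's lists were matched by transcript.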

Additional observations from a re-analysis of the deposited data

Results flagged for a closer look

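Of 40 genes followed over the settings, 10 passed the looser thresholds with this pattern: the Wnt3a response had 1 sign on all 3 slides without FZD8_CRD and the opposite sign on all 3 slides with it. All but FST met a naming rule that required 1 sign of the difference on the 3 slides, so the count of 10 is no support for the pattern. Over all 24290 genes tested the pattern held for 796, among them 52 of the 145 and 40 of the 143 past the looser thresholds. The difference was tested by the interaction in limma, which called 0 genes at an adjusted p under 0.05. Below 0 were HAPLN1, with a difference of -4.48, CXCL14 (-1.41), KCNJ2 (-1.325), STK32B (-1.26), FST (-1.01) and CTNNAL1 (-0.57). Above 0 were C5orf46, with a difference of 2.16, TMEM89 (0.95), BBOF1 (0.78) and ST3GAL4 (0.62). No test for an outlying value within a group was run, since each group held 3 arrays.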

How the results depend on the processing

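Over 30 settings and 40 genes, 1051 of 1197 values kept their direction and their side of the threshold, 143 passed the threshold, and 3 reversed in sign. These were AXIN2 with spike-in scaling (0.065), RNF43 without replicate 1 (-0.061, in a range of -0.061 to 0.189 over arrays left out) and IGFL2 without FZ8CRD replicate 2 (-0.022, in a range of -0.022 to 1.295). Under spike-in scaling the median of all genes was 0.308, so relative to it AXIN2 stayed below and did not reverse. The size of a difference could move where its direction was kept, among genes of low signal. Over the settings that left no array out, it ranged from -5.164 to -2.411 for HAPLN1 and from 0.946 to 2.465 for C5orf46. The ranges were -3.151 to -0.953 for IGFBP5 and 0.225 to 1.462 for COL1A2. The count of called genes was 0 on 12 arrays, 18 with all 24 arrays, 1510 with array weights, 3420 with array weights and the replicate block, 63 with spike-in scaling, 5 with no filter (41258 genes), 1 without a trend and 4 by ordinary least squares. Past the looser thresholds were 288 genes, 727 with all 24 arrays, 1729 with array weights, 2422 with array weights and the replicate block, and 166 by ordinary least squares. Leaving out arrays gave 0 to 755 called and 21 to 1742 past the looser thresholds, the highest counts without replicate 3. The cause of these shifts was not tested. List medians ranged over the settings from 0.291 to 1.251 for hepatocyte genes, -1.076 to -0.337 for mitosis genes and -0.51 to -0.002 for DNA replication genes. With spike-in scaling, which moved the median of all genes to 0.308, the medians of several lists went from below 0 to above 0, among them Wnt feedback targets (0.115), Wnt ligands and their secretion (0.154), Frizzled receptors and co-receptors (0.081), secreted inhibitors (0.099), cholesterol and fatty acid synthesis (0.072), the destruction complex (0.196), other collagens (0.193), heat shock genes (0.116) and metallothioneins (0.095).

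With the replicate block, 0 genes were called and 353 were past the looser thresholds. After subtraction of condition means, arrays sharing a number had a mean r of 0.316 across genes. For arrays of other numbers it was -0.155. The subtraction by itself pushes this second value below 0 when the first is above 0, so it adds no separate support. Among pairs sharing a number, r was over 0.1 in 16 of 18, and 12 of 12 arrays correlated best with their own number. Well above background were 59.16% to 63.48% of the spots per array.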
